A study of Mus musculus with 48 samples.

Results

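The 10 genes described here report on stress of the endoplasmic reticulum (ER) and on the integrated stress response in mouse liver. They are Atf3, Atf4, Ddit3, Xbp1, Hspa5, Trib3, Chac1, Herpud1, Dnajb9 and Asns, taken by gene name from a table of 29221 genes in 48 whole-liver RNA-seq libraries. All 10 were found, each under 1 gene identifier.

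When unfolded protein builds up in the ER, 3 membrane sensors respond. ATF6 and IRE1 (gene Ern1), the enzyme that splices Xbp1 mRNA, raise ER chaperones and degradation factors, while PERK (gene Eif2ak3) phosphorylates the translation factor eIF2α. Phosphorylated eIF2α, also made by kinases that sense amino acid shortage, haem shortage and viral RNA, slows general translation but favours translation of ATF4, a transcription factor whose targets include Ddit3 (CHOP), Trib3, Chac1 and Asns. In hepatocytes, which secrete much of the plasma protein, these programs are studied in relation to fatty liver. Gene-level read counts carry neither the splicing of Xbp1 nor the translation of Atf4, so the values below are total mRNA only.

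All 48 mice carried floxed Pparg, the gene of the nuclear receptor PPARγ. After 16 weeks on diet they received an AAV8 virus in which the hepatocyte promoter TBG drove Cre recombinase (AAV8-TBG-Cre, labelled knockout) or a virus with no Cre (AAV8-TBG-null, control). Cell types of the liver other than hepatocytes are not targeted by this promoter. The diets were low fat (LF, D12450J, 34 weeks, females only), high fat (HF, D12492, 34 weeks), and HFCF (D16010101), in which mice ate the HF diet for 18 weeks and then for 16 weeks one rich in cholesterol and fructose as well as fat. The 4 male groups (HF and HFCF, each as control and labelled knockout) had 6 livers each, and the 6 female groups (LF, HF and HFCF, likewise) had 4 each. The age of the mice beyond the label adult is not given in the sources used here. A labelled replicate is 1 liver.

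Libraries held 15338239 to 22072884 reads on genes. Values are read counts scaled to a common library size (CPM), fold changes are log2 with their standard error (SE), and a gene is said to rise or fall only where the edgeR quasi-likelihood p, adjusted over all genes tested in that comparison, was under 0.05. Pparg itself was not lower in any labelled-knockout group. In HF males it measured 41.2 ± 14.1 CPM (SD, n = 6) against 34.3 ± 3.95 in controls, and in HFCF males 55.9 ± 6.05 against 32.0 ± 5.59. Gene-level counts do not separate the floxed exons from the rest of the gene, so this is no check of the deletion. Cidec, a lipid droplet gene known as a PPARγ target, measured 5.24 ± 0.797 CPM in labelled-knockout HF males against 134 ± 15.7 in controls, and 26.8 ± 11.8 against 160 ± 8.20 in HFCF males. In females it measured 6.12 against 6.96 CPM on LF, 3.70 ± 1.66 against 21.7 ± 23.4 CPM on HF and 12.1 ± 5.51 against 64.7 ± 15.2 CPM on HFCF (n = 4 each). The groups are therefore called labelled knockout throughout. The summed level of 6 hepatocyte markers was 36780 CPM or more in every library, and adipocyte-defining Adipoq and Retn did not exceed 0.134 CPM in any.

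Promoter sequences are shown for 5 members because ATF6, XBP1 and ATF4 are known to read different short motifs. Each stretch is from RefSeq on GRCm38.p6, read 5′ to 3′ on the gene's strand, with motif matches in capitals. The motifs searched on both strands of the 300 bases around each start (250 before, 50 after) were the ER stress element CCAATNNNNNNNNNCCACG, the related element ATTGG and CCACG with 1 base between (ER stress element II), the XBP1-type core ACGTGG, the ATF4-type amino acid response element TGATGNAA, and the cyclic AMP element TGACGTCA. For Hspa5 (the chaperone BiP, chr2:34771840-34772089, plus strand) and Herpud1 (an ER membrane protein of the degradation pathway, chr8:94386179-94386428, plus strand) the 250 bases before the start read:
Hspa5: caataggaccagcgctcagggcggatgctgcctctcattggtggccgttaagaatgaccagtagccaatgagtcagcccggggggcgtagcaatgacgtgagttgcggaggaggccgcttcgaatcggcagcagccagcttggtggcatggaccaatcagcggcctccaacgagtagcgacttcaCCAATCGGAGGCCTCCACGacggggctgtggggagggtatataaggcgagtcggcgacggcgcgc
Herpud1: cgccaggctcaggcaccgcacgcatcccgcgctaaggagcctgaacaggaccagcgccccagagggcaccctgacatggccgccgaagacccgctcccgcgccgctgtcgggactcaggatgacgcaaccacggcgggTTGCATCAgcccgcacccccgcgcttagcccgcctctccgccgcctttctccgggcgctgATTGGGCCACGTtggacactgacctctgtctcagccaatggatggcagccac
The Hspa5 stretch holds the ER stress element 65 to 47 bases before the start. That motif occurs in 39 of 32851 promoters of the same length, or 0.119%. In Herpud1 the capitals mark first a TGATGNAA match on the opposite strand and then ER stress element II, which overlaps a match to ACGTGG. ER stress element II occurs in 12 promoters (0.0365%) and ACGTGG in 2729 (8.31%). For Atf3 (a transcription factor induced by many stresses, chr1:191183334-191183583, minus strand), Chac1 (an enzyme that degrades glutathione, chr2:119350992-119351241, plus strand) and Trib3 (a pseudokinase induced by ATF4 and CHOP, chr2:152344028-152344057, minus strand, only 30 bases around its match) the stretches read:
Atf3: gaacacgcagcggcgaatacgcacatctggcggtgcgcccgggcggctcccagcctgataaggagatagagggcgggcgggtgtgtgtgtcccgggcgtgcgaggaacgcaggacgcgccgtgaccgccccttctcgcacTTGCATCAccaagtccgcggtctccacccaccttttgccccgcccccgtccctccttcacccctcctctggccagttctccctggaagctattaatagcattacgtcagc
Chac1: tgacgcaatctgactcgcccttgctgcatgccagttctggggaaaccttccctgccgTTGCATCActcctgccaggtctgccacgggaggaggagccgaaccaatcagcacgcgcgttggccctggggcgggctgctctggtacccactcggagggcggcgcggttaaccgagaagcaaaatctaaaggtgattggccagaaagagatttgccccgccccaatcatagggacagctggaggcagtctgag
Trib3: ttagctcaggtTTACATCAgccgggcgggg
In these 3 the capitals mark TGATGNAA on the opposite strand. It also occurs in Asns (asparagine synthetase), and in 1304 promoters in all (3.97%). Dnajb9, an ER co-chaperone, holds ACGTGG. Atf4, Ddit3 and Xbp1 hold none of the 5 motifs in this window, and no member holds TGACGTCA. A match is a description of letters and not a measured binding site.

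The gene models of the deposited tables are on GRCm38. Atf3 (ENSMUSG00000026628) spans 191170296 to 191218039 on chromosome 1, minus strand, so the RefSeq start used above lies inside the model. Trib3 (ENSMUSG00000032715) spans 152337422 to 152344032 on the minus strand of chromosome 2, which also carries Chac1 (ENSMUSG00000027313, 119351229 to 119354381) and Hspa5 (ENSMUSG00000026864, 34771970 to 34777547), both on the plus strand. Herpud1 (ENSMUSG00000031770, chromosome 8, 94386438 to 94395377, plus strand) overlaps the antisense gene Gm15890, which had 578 reads in all against 264921. Xbp1 (ENSMUSG00000020484) spans 5520659 to 5525893 on chromosome 11, plus strand. Counts are over the whole gene model and are not split by exon or UTR.

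The 10 genes differed widely in level. Per kilobase of the gene model and averaged over 48 livers, Herpud1 stood at 136 CPM per kb and Hspa5 at 112. Xbp1 followed at 61.3, Atf4 at 33.6 and Dnajb9 at 17.0 CPM per kb. The remaining members were low, with Ddit3 at 4.60, Trib3 at 4.59, Chac1 at 3.08, Atf3 at 3.05 and Asns at 0.232 CPM per kb. The highest group mean was 10.4 times the lowest for Asns, 5.34 times for Atf3 and 3.18 times for Chac1. It was 2.38 times the lowest for Trib3, 2.19 for Herpud1 and 2.01 for Hspa5, and between 1.22 (Dnajb9) and 1.77 (Xbp1) for the others. When the 10 group means of a gene were put in order, most neighbours lay within the larger of their 2 SDs. Exactly 1 neighbouring step exceeded it for Atf4, Ddit3, Xbp1, Trib3 and Chac1, and 0 did for Atf3, Hspa5, Herpud1, Dnajb9 and Asns.

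**Figure D1:**
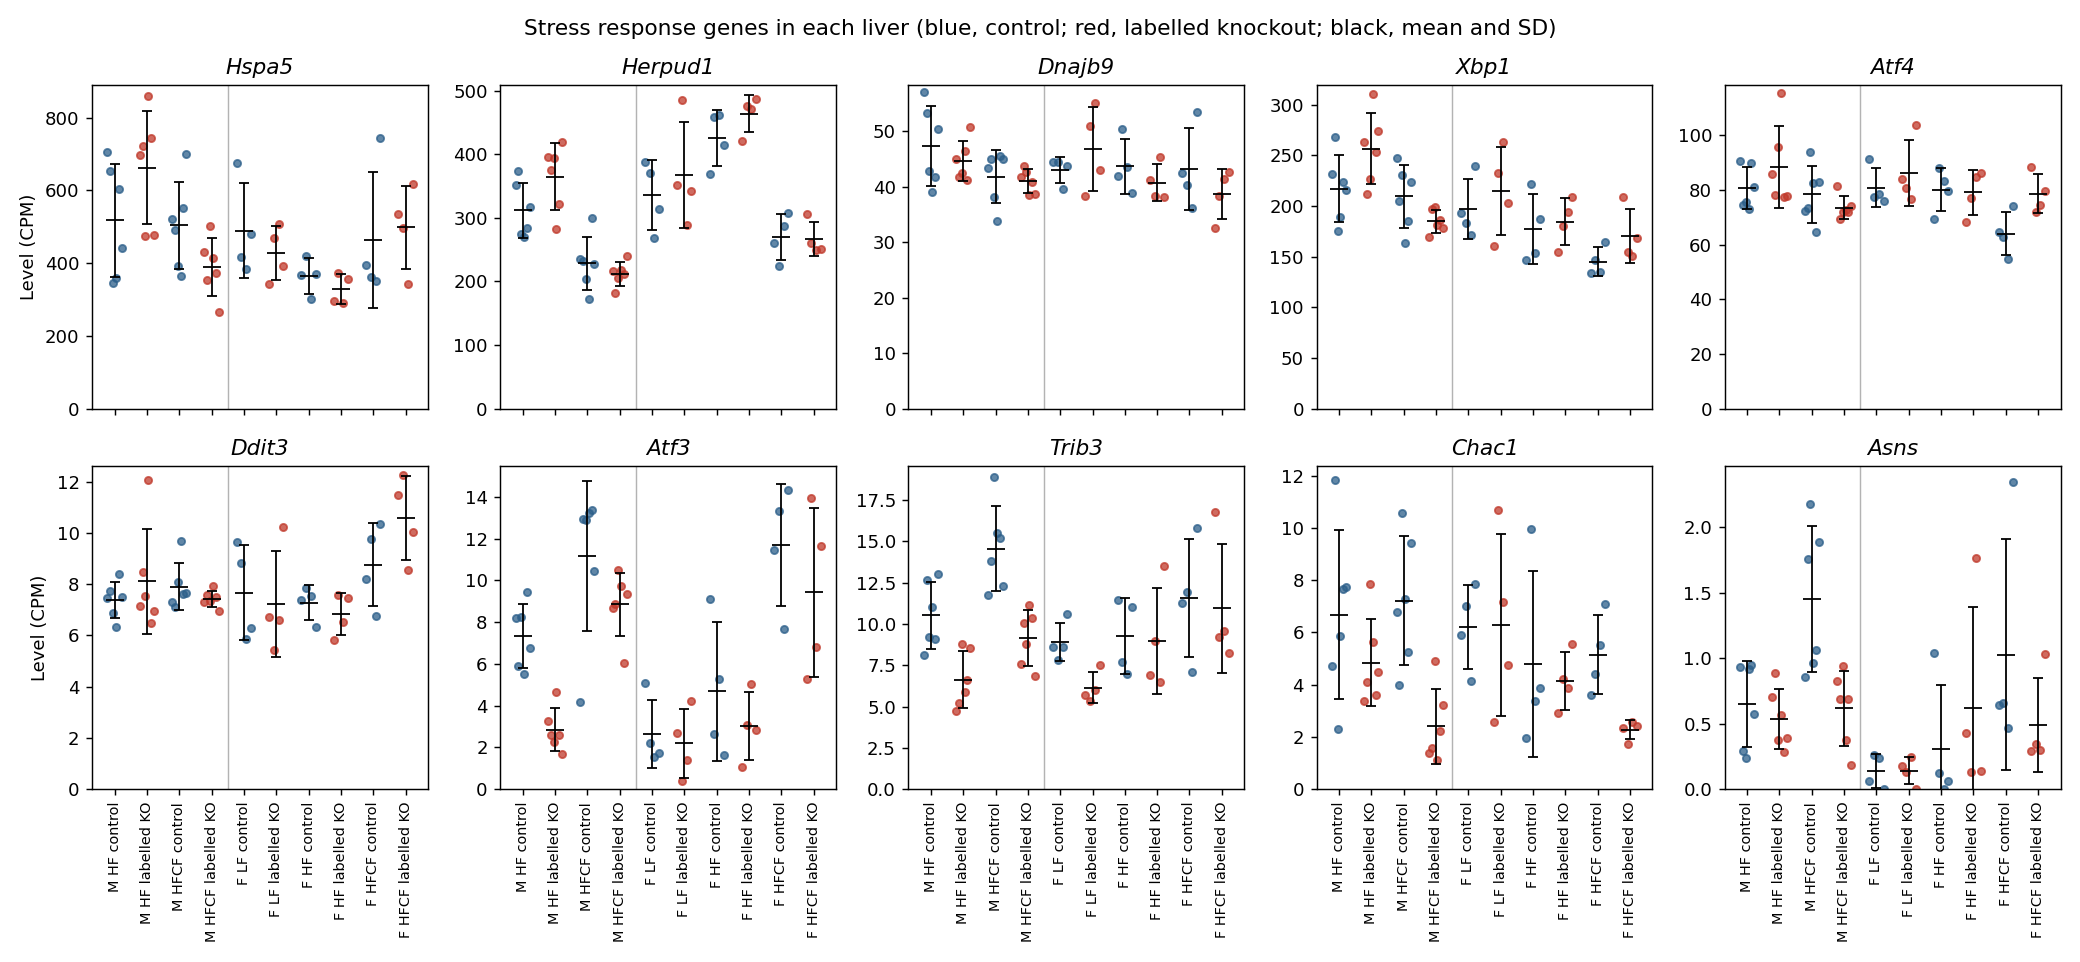
CPM of each of the 10 genes (vertical axis from 0) in every liver of the 10 groups (horizontal axis). Points are livers, blue for control and red for labelled knockout, and black bars are mean ± SD (n = 6 per male group, n = 4 per female group). Atf3 is low in labelled-knockout HF males (1.69 to 4.67 CPM) and high in most HFCF livers, while Dnajb9 is nearly level.

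Over the 13 pairwise comparisons, 123 tests of members were possible and gave 27 calls, 11 higher and 16 lower. The share of all genes called ran from 0% (labelled knockout, LF and HF females) to 41.7% (HFCF against HF, labelled-knockout males). The pooled count is therefore not read as a result about the members, and each comparison is given below with its own share. Atf3 was called in 6 comparisons, Trib3 in 5, and Chac1 and Herpud1 in 4 each. Atf4, Xbp1 and Hspa5 were called in 2 each, Ddit3 and Asns in 1 each, and Dnajb9 in 0. Herpud1 and Chac1 were lower in all 4 of their calls, while Trib3 was lower in 2 and higher in 3. Many of these comparisons share livers, since each group enters several, so the calls are not separate observations.

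Among males fed the HF diet, labelled knockouts had lower Atf3 and Trib3, and no member was higher. Of all 14041 genes tested there, 18.5% were called, 8.57% higher and 9.88% lower, against 0 and 2 of 10 members. The median log2 change was 0.014 over the members and 0 over all genes. Atf3 ran from 5.51 to 9.45 CPM (median 7.48) in the 6 controls and from 1.69 to 4.67 CPM (median 2.59) in the 6 labelled knockouts. Every labelled knockout lay below every control. The log2 change was -1.37 (SE 0.21, adjusted p = 3.24e-04). Trib3 ran from 8.15 to 13.0 CPM (median 10.1) in controls and from 4.71 to 8.78 CPM (median 6.23) in labelled knockouts. These ranges overlapped, with the labelled knockouts low. Its log2 change was -0.68 (SE 0.16, adjusted p = 0.00958). Both calls held when any 1 liver was left out.

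The other members of the ATF4 arm (Atf4, Ddit3, Chac1 and Asns) did not pass in HF males. Chac1 ran from 2.29 to 11.8 CPM in controls and from 3.38 to 7.85 CPM in labelled knockouts, a spread that covers its log2 change of -0.48 (adjusted p = 0.295). Atf4 mRNA averaged 88.3 ± 15.0 CPM in labelled knockouts and 80.7 ± 7.78 CPM in controls. Among 32 other tested targets of ATF4 and CHOP, 4 rose and 4 fell, where 8.57% of all genes rose and 9.88% fell. Cth, an enzyme of cysteine synthesis, rose (log2 0.75), as did Ddit4, an mTORC1 inhibitor (0.49). Tnfrsf10b, a death receptor, fell from a low 1.78 to 0.610 CPM (-1.53). Psat1, of serine synthesis, fell from 1.62 to 0.915 CPM (-0.82), and Vldlr, a lipoprotein receptor, fell too (-0.73). Eif2ak3, the PERK kinase, fell from 32.8 to 20.6 CPM (log2 -0.68, SE 0.11, adjusted p = 4.14e-04).

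Several ER chaperones outside the 10 members were higher in these livers. Of 14 other ER chaperones and folding enzymes, 5 rose and 0 fell, where 8.57% of all genes rose and 9.88% fell. Their median log2 change was 0.315. Sdf2l1, a stress-induced partner of DNAJ chaperones, rose from 18.8 to 28.8 CPM (log2 0.61, adjusted p = 0.0135). Ppib (0.40), Dnajb11 (0.32), Pdia3 (0.28) and Dnajc3 (0.24) rose too. Of 19 translocation and ER-degradation genes, 4 rose (8.57% of all genes did), among them Derl3 (1.08) and Edem1 (0.36). Hspa5 itself ran from 473 to 860 CPM in labelled knockouts and from 344 to 705 CPM in controls, overlapping ranges, with a log2 change of 0.35 and an adjusted p of 0.220. Herpud1 (0.22, adjusted p = 0.157) and Xbp1 (0.23, adjusted p = 0.133) were likewise not called. Xbp1 was called without control 2 (0.30, adjusted p = 0.0435), and Herpud1 without labelled knockout 4 (0.29, adjusted p = 0.0422).

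Cell-type markers also moved in HF males, where 8.57% of all genes rose and 9.88% fell. The summed level of hepatocyte markers was 59386 to 82203 CPM in controls and 87399 to 100937 CPM in labelled knockouts, and 5 of the 6 rose. That of stellate cell markers was 418 to 607 CPM in controls and 313 to 441 CPM in labelled knockouts, with 4 of 6 lower. Of 3 blood genes, Hbb-bs (1.48) and Hba-a1 (1.52) rose, with a summed level of 89.97 to 173 CPM in controls and 86.5 to 640 CPM in labelled knockouts. Of 9 tested immediate early genes, which respond within minutes to stimuli including handling of tissue, 3 fell (Egr1 by 1.09, Jun by 0.85 and Btg2 by 0.70 on the log2 scale) and Zfp36 rose (0.61). Their part in the Atf3 and Trib3 results was not tested. In bulk liver, fewer cells of a type and less RNA per cell cannot be told apart.

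On the HFCF diet the labelled knockout in males was marked by lower Trib3 and Chac1. Of 14685 genes tested, 2.21% were called, 0.933% higher and 1.27% lower, against 0 and 2 of 10 members, and the median log2 change was -0.261 over members and -0.01 over all genes. Trib3 ran from 11.7 to 18.9 CPM (median 14.5) in controls and from 6.84 to 11.2 CPM (median 9.44) in labelled knockouts. Every labelled knockout lay below every control. Its log2 change was -0.67 (SE 0.14, adjusted p = 0.0212). Chac1 ran from 3.99 to 10.6 CPM (median 7.03) in controls and from 1.12 to 4.89 CPM (median 1.90) in labelled knockouts. The groups overlapped slightly, and the labelled knockouts were low. This was a log2 change of -1.58 (SE 0.33, adjusted p = 0.0238).

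These HFCF male calls were less secure than those on the HF diet. Trib3 missed the threshold without control 3 or labelled knockout 1 (adjusted p 0.0505 to 0.0515). Chac1 missed it without control 3 or 6, or labelled knockout 1, 2, 4 or 5 (log2 -1.55 to -1.43, adjusted p 0.0527 to 0.0642). Control 1 had the opposite effect, with Atf3 at 4.16 CPM there against a median of 12.9 CPM in its group. Over all 6 controls Atf3 differed by -0.34 (adjusted p = 0.537), and without control 1 by -0.51 (adjusted p = 0.0197). Asns, which ran from 0.857 to 2.18 CPM in controls and averaged 0.617 ± 0.286 CPM in labelled knockouts, had a log2 change of -1.21 (adjusted p = 0.0855 by edgeR, 0.0219 by the DESeq2 Wald test), and of -1.32 without control 1 (adjusted p = 0.0273). None of the 14 other chaperones was called by edgeR (7 at an unadjusted p under 0.05, median -0.239), nor was Hspa5 (-0.37, adjusted p = 0.312). Of the marker genes, only Clec4f of the macrophage list was called in this comparison.

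In females no member was called for the labelled knockout on any diet. The background was 0% of genes on LF, 0% on HF and 0.0534% on HFCF, and the count of members at an unadjusted p under 0.05 was 1 of 9, 0 of 9 and 2 of 10. Trib3 in LF females measured 8.60, 7.85, 8.63 and 10.6 CPM in controls and 5.70, 5.34, 6.00 and 7.50 CPM in labelled knockouts. Every labelled knockout lay below every control, with a log2 change of -0.53 (SE 0.16) that was not significant after adjustment (adjusted p = 0.9996). Chac1 in HFCF females measured 3.60, 4.40, 5.51 and 7.09 CPM in controls (1, 2, 3 and 5) and 2.35, 1.74, 2.57 and 2.42 CPM in labelled knockouts. Here too the groups did not overlap. The share of all genes whose groups do not overlap is not given, in this or any other comparison. The log2 change was -1.16 (SE 0.25), with adjusted p = 0.227 by edgeR and 0.00672 by the DESeq2 Wald test.

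Whether the labelled knockout differed between the sexes was tested directly. On the HF diet and on the HFCF diet 0 of 10 members passed the interaction with sex (background 0% of genes in both), and 0 and 3 members had an unadjusted p under 0.05. The lower Atf3 and Trib3 of males are therefore not shown to differ from the change in females. The female groups of 4 gave Atf3 log2 changes of -0.63 (SE 0.56) on HF and -0.28 (SE 0.29) on HFCF.

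The HF diet against the LF diet, testable only in females, called 0 of 9 members in controls (background 0.696%) and 0 of 9 in labelled knockouts (0.155%). At an unadjusted p under 0.05 there were 2 and 3. Hspa5 in controls measured 677, 416, 385 and 479 CPM on LF and 368, 420, 302 and 369 CPM on HF. The HF livers were lower apart from 1 that overlapped, with a log2 change of -0.41 (SE 0.18, adjusted p = 0.304). Herpud1 changed by 0.36 (SE 0.14, adjusted p = 0.236) in the same livers.

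The HFCF diet called 2 to 7 members per comparison against HF or LF. Atf3 was higher in 5 of those 6 comparisons, and Herpud1 was lower in all 4 of those against HF. In control females on HFCF against HF, 1 of 10 members rose and 1 fell. Of all 14701 genes tested 30.8% were called, 16.9% higher and 13.8% lower. Atf3 measured 9.11, 2.66, 5.29 and 1.65 CPM on HF and 11.4, 13.3, 7.67 and 14.3 CPM on HFCF. Most HFCF livers were above all HF livers, but HF control 1 exceeded HFCF control 3. The log2 change was 1.32 (SE 0.45, adjusted p = 0.0486), and it was lost without any 1 of HF controls 2, 3 and 4 or HFCF controls 1, 2 and 5 (log2 1.03 to 1.38, adjusted p 0.0838 to 0.116).

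Herpud1 fell in the same control females. It measured 369, 459, 463 and 414 CPM in HF control females and 260, 224, 288 and 307 CPM in HFCF control females. All HFCF livers lay below all HF livers. At a log2 change of -0.65 (SE 0.12, adjusted p = 0.00725) it was called with any 1 liver left out. Atf4 just missed (-0.31, adjusted p = 0.0509), and passed without HF control 1 (adjusted p = 0.0152) or HFCF control 5 (adjusted p = 0.0346). By the DESeq2 Wald test its adjusted p was 0.0417.

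In labelled-knockout females on HFCF against HF, 3 of 9 members rose and 2 fell, where 14.5% of genes were called, 8.44% higher and 6.01% lower. Atf3 measured 1.08, 3.09, 5.05 and 2.81 CPM on HF and 5.29, 14.0, 6.83 and 11.6 CPM on HFCF, without overlap (log2 1.65, SE 0.44, adjusted p = 0.0321). Ddit3, the CHOP gene, measured 5.81, 7.57, 6.51 and 7.45 CPM on HF and 11.5, 12.3, 8.56 and 10.0 CPM on HFCF, again without overlap (0.64, SE 0.16, adjusted p = 0.0258). The Ddit3 value is uncertain, because the libraries were not stranded and Mars, on the opposite strand, overlaps it with 50525 reads in all against 6706. Chac1 went down, from 2.90, 4.21, 3.87 and 5.55 CPM to 2.35, 1.74, 2.57 and 2.42 CPM (-0.85, SE 0.25, adjusted p = 0.0457). Those groups did not overlap either.

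Of the chaperone arm (Xbp1, Hspa5, Herpud1 and Dnajb9), Herpud1 fell and Hspa5 rose in these females, and the others were not called. Herpud1 measured 421, 477, 472 and 487 CPM on HF and 306, 260, 250 and 251 CPM on HFCF. It fell in every liver below the lowest HF value (log2 -0.79, SE 0.11, adjusted p = 0.00307). Hspa5 measured 296, 372, 290 and 358 CPM on HF and 536, 496, 343 and 617 CPM on HFCF. Of the HFCF livers, 3 were above all HF livers and 1 lay within their range (0.60, SE 0.18, adjusted p = 0.0455). Only Herpud1 kept its call with any 1 liver left out.

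Each of the other calls in labelled-knockout females was lost in some of the 8 fits that left out 1 liver. For Ddit3 these left out HF livers 1 and 4 or HFCF livers 2 and 4 (adjusted p 0.0554 to 0.0836). For Atf3 they left out HF livers 1, 2 and 4 or HFCF livers 2, 3 and 4 (0.0528 to 0.0965), and for Chac1 HF livers 2, 3 and 4 or HFCF livers 2, 3 and 4 (0.0551 to 0.131). Hspa5 lost its call without any 1 of the 4 HF livers or HFCF livers 2 and 4 (0.0682 to 0.129).

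Against the LF diet, HFCF control females had 1 of 9 members higher and 2 lower, where 35.2% of genes were called, 18.4% higher and 16.8% lower. Atf3 measured 5.07, 2.22, 1.56 and 1.75 CPM on LF, so every HFCF value given above was higher. The log2 change was 2.13 (SE 0.36, adjusted p = 0.00208) and held with any 1 liver left out. Xbp1 measured 193, 184, 171 and 239 CPM on LF and 134, 147, 135 and 164 CPM on HFCF, without overlap (-0.45, SE 0.12, adjusted p = 0.0163). Atf4 measured 91.3, 77.6, 78.6 and 75.8 CPM on LF and 64.6, 62.7, 54.6 and 74.1 CPM on HFCF, also without overlap (-0.34, SE 0.11, adjusted p = 0.0311). Xbp1 missed the threshold without HFCF control 1 or 2 (adjusted p 0.0564 to 0.0568), and Atf4 without LF control 1 or HFCF control 1, 2 or 3 (0.0583 to 0.108).

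In labelled-knockout females HFCF against LF gave 2 of 9 members higher and 1 lower, where 12.0% of genes were called, 8.26% higher and 3.74% lower. Atf3 measured 2.70, 0.401, 1.41 and 4.24 CPM on LF, all below the HFCF values (log2 2.15, SE 0.51, adjusted p = 0.0192). Trib3 measured 5.70, 5.34, 6.00 and 7.50 CPM on LF and 16.8, 9.19, 9.60 and 8.24 CPM on HFCF, without overlap (0.85, SE 0.22, adjusted p = 0.0289). Chac1 measured 2.58, 10.7, 7.16 and 4.74 CPM on LF against at most 2.57 CPM on HFCF (-1.44, SE 0.38, adjusted p = 0.0291). These 3 calls were each lost without some livers. For Atf3 those were LF liver 3 or HFCF liver 2 or 4 (adjusted p 0.0507 to 0.0672). For Trib3 they were LF liver 1, 2 or 3 or HFCF liver 2 or 3 (0.0555 to 0.111), and for Chac1 LF liver 2 or 3 or HFCF liver 2, 3 or 4 (0.0638 to 0.0940).

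In control males HFCF against HF called 2 of 10 members higher and 1 lower, where 22.3% of genes were called, 13.0% higher and 9.31% lower. Herpud1 ran from 270 to 374 CPM (median 300) on HF and from 173 to 300 CPM (median 230) on HFCF. The ranges overlapped, with HFCF livers low (log2 -0.42, SE 0.12, adjusted p = 0.0192), and the call held with any 1 liver left out. Trib3, whose control values in both diets are given above, rose by 0.50 (SE 0.14, adjusted p = 0.0205), and not without HFCF control 3 (0.41, adjusted p = 0.0531). Asns ran from 0.235 to 0.951 CPM on HF and from 0.857 to 2.18 CPM on HFCF (1.20, SE 0.36, adjusted p = 0.0270). It rests on 4 to 17 reads per HF library, and was lost without HF control 2 or 6 or HFCF control 2, 3 or 6 (adjusted p 0.0543 to 0.0712). Atf3 had a log2 change of 0.64 (adjusted p = 0.0574 by edgeR, 0.0338 by the DESeq2 Wald test), and of 0.81 without HFCF control 1 (edgeR adjusted p = 1.85e-04).

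Labelled-knockout males had the most member calls of all, 2 higher and 5 lower of 10 on HFCF against HF, and the broadest background, with 41.7% of genes called, 21.6% higher and 20.0% lower. The median log2 change was -0.179 over members and -0.02 over all genes. Atf3 ran from 1.69 to 4.67 CPM on HF and from 6.05 to 10.5 CPM (median 9.09) on HFCF. The groups did not overlap, and the log2 change was 1.66 (SE 0.20, adjusted p = 1.80e-05). Trib3 rose by 0.48 (SE 0.17, adjusted p = 0.0304), from a median of 6.23 CPM to 9.44 CPM. The HFCF comparisons in labelled knockouts and the labelled-knockout comparison on HF share the 6 labelled-knockout HF livers in which Atf3 and Trib3 were low.

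Of the chaperone arm, Herpud1, Hspa5 and Xbp1 fell in the same males. Dnajb9 averaged 44.7 ± 3.66 CPM on HF and 41.1 ± 2.09 CPM on HFCF and was not called. Herpud1 ran from 283 to 419 CPM (median 385) on HF and from 181 to 240 CPM (median 214) on HFCF, without overlap (log2 -0.77, SE 0.09, adjusted p = 1.82e-05). Hspa5 ran from 473 to 860 CPM (median 710) on HF and from 265 to 502 CPM (median 393) on HFCF, overlapping slightly with HFCF low (-0.75, SE 0.16, adjusted p = 0.00178). Xbp1 ran from 212 to 310 CPM on HF and from 169 to 199 CPM on HFCF, without overlap (-0.46, SE 0.08, adjusted p = 5.51e-04). These 3 calls and that of Atf3 held with any 1 liver left out. Chac1 fell by 0.98 (SE 0.32, adjusted p = 0.0241) and Atf4 by 0.25 (SE 0.09, adjusted p = 0.0390) on the log2 scale. Chac1 missed the threshold without HF liver 3 or HFCF liver 1 or 2 (adjusted p 0.0535 to 0.0667). Atf4 missed it in 8 of 12 fits without 1 liver (HF 1, 3 and 4, HFCF 2 to 6; 0.0506 to 0.0788), and Trib3 in 7 (HF 1, 2, 4 and 5, HFCF 2, 4 and 5; 0.0517 to 0.0717).

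**Figure D2:**
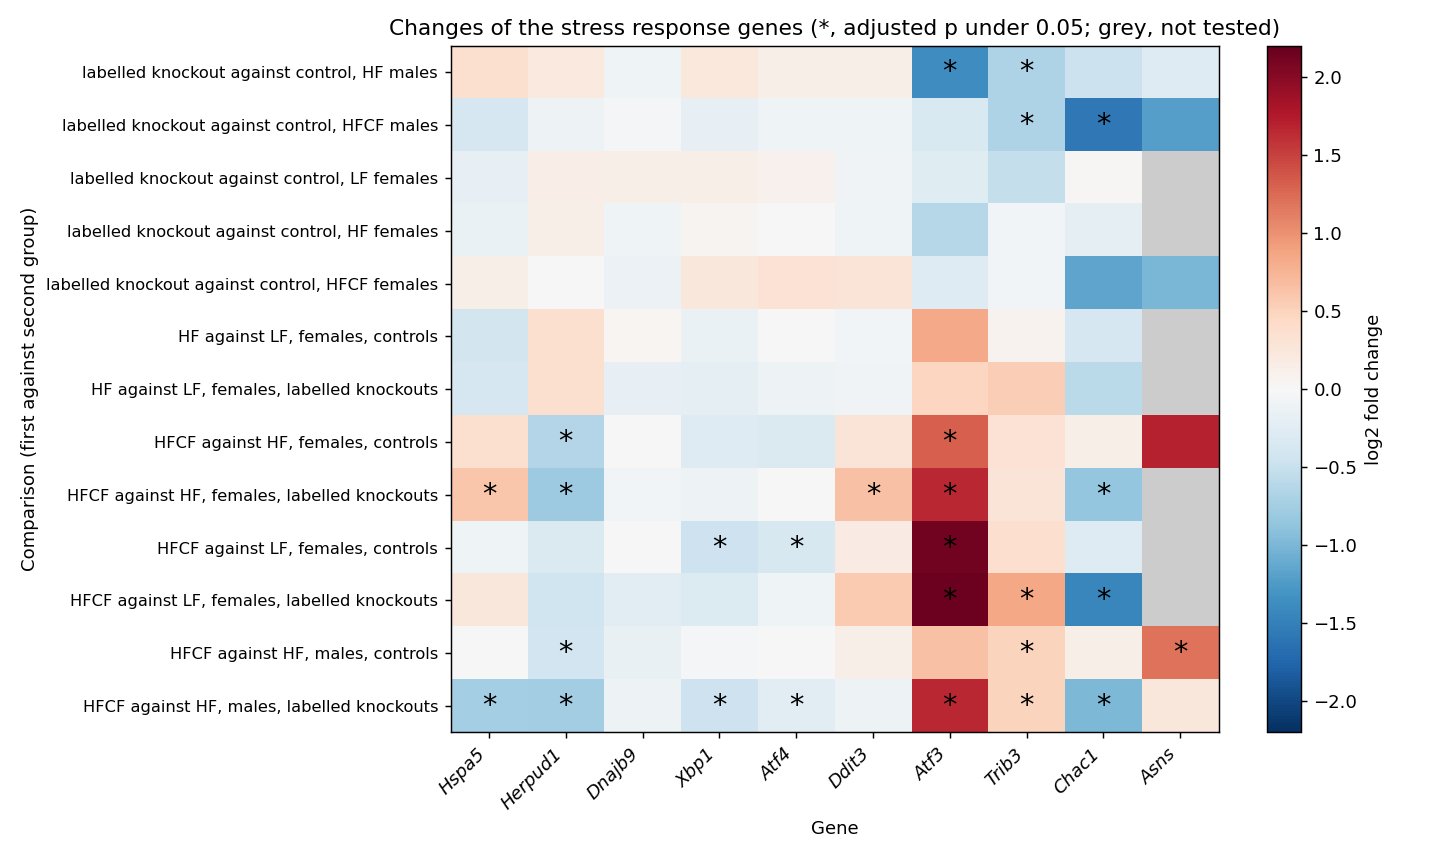
Log2 fold change (colour) of the 10 genes (columns) in the 13 pairwise comparisons (rows). A star marks an edgeR adjusted p under 0.05 and grey marks a gene that did not pass the count filter, which is Asns in 7 comparisons. Herpud1 is lower in all 4 HFCF comparisons against HF, and Atf3 is higher in 5 of the 6 HFCF comparisons.

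The other genes of the pathway on HFCF against HF were counted from 6 lists. All 14 other ER chaperones and folding enzymes fell in labelled-knockout males, where 20.0% of all genes fell. Their median log2 change was -0.60, against -0.02 over all genes. Creld2, induced by ER stress, fell from 29.9 ± 10.2 to 15.8 ± 3.18 CPM (-0.90, adjusted p = 0.00205), and Hyou1, an ER chaperone of the HSP70 family, from 151 ± 42.3 to 82.7 ± 15.8 CPM (-0.86, adjusted p = 0.00123). In control males, where 22.3% of all genes were called, 0 of the 14 were, with a median of -0.05. In labelled-knockout females, where 8.44% of all genes rose and 6.01% fell, 3 of the 14 rose and 0 fell (median 0.21). These were Manf, a secreted stress-induced ER protein, from 30.2 ± 3.95 to 56.5 ± 14.2 CPM (0.91, adjusted p = 0.0114), Creld2 (0.75) and Sdf2l1 (0.72). In control females, where 16.9% of all genes rose and 13.8% fell, Ppib fell (-0.29) and no other was called.

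**Figure D3:**
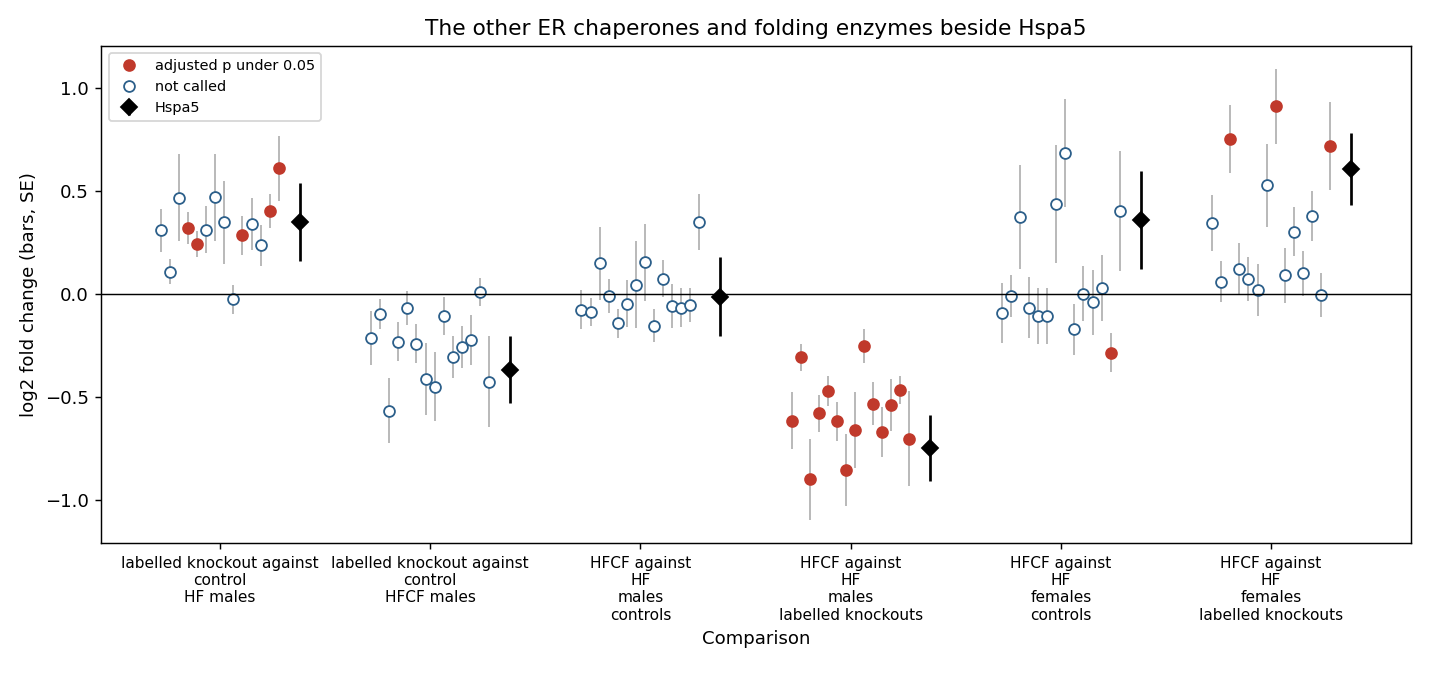
Log2 fold change ± SE (vertical axis) of 14 other ER chaperones and folding enzymes in 6 comparisons (horizontal axis), with filled red points for an edgeR adjusted p under 0.05 and a black diamond for Hspa5. On HFCF against HF all 14 are lower in labelled-knockout males, while 3 are higher in labelled-knockout females.

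The difference between those diet effects was tested. Hspa5 gave a male minus female difference of -1.32 (SE 0.26) in the diet effect of labelled knockouts, with an unadjusted p of 5.01e-05 and an adjusted p of 0.0655, where 0.0130% of genes were called. In controls the same difference called 0 of 10 members (0.00646% of genes). The labelled-knockout difference of Hspa5 passed without HF male 3 (adjusted p = 0.0416), HF male 6 (0.0251), HFCF male 3 (0.0450) or HFCF female 3 (0.0196). Of the 14 other chaperones 0 passed, although all 14 had an unadjusted p under 0.05 and a median difference of -0.772, against 0.03 over all genes. In males the diet effect was also compared between labelled knockouts and controls. Dnajb11 (-0.57, adjusted p = 0.0245) and Pdia3 (-0.61, adjusted p = 0.0306) passed among the 14, and Eif2ak3 passed with 0.67 (adjusted p = 0.0345), where 1.56% of genes did. No member passed, with Atf3 at 1.01 (SE 0.33, adjusted p = 0.0987), Xbp1 at -0.43 (0.108) and Hspa5 at -0.74 (0.152). Atf3 passed without labelled-knockout HF liver 4 (1.21, adjusted p = 0.0448), and Xbp1 without control HF liver 2 (-0.49, adjusted p = 0.0491).

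Of 19 translocation and ER-degradation genes, 6 fell in labelled-knockout males on HFCF against HF, including Derl3 (-1.73), Derl2 (-0.50) and Syvn1 (-0.45), components of the retrotranslocation machinery, where 20.0% of all genes fell. In control males 2 of the 19 fell (Derl2 and Sel1l), where 9.31% of all genes did. In control females Sec61a1, of the translocation channel, rose (0.43), and Os9 and Erlec1, lectins of the degradation pathway, fell (16.9% and 13.8% of all genes). In labelled-knockout females Sec61g (0.62), Sec61b (0.57) and Edem2 (0.32) rose (8.44% of all genes). Among 10 sensors and eIF2α kinases, Eif2ak3 rose in labelled-knockout males (0.53, adjusted p = 0.00146), control females (0.72, adjusted p = 0.0250) and labelled-knockout females (0.87, adjusted p = 0.0175), and measured -0.14 in control males (adjusted p = 0.382). Creb3l3, a liver ER-bound transcription factor related to ATF6, fell in both male comparisons (-0.35 in controls, -0.36 in labelled knockouts) and in control females (-0.51). Ppp1r15b, the constitutive subunit that directs eIF2α dephosphorylation, fell in control females (-0.37), labelled-knockout females (-0.55) and labelled-knockout males (-0.26).

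Called genes among the other targets of ATF4 and CHOP mostly rose, except in labelled-knockout males, where as many fell as rose. On HFCF against HF, 7 of 33 rose and 1 fell in control females, where 16.9% of all genes rose and 13.8% fell. In labelled-knockout females 5 of 33 rose and 0 fell (8.44% and 6.01% of all genes). In control males 7 of 33 rose and 2 fell (13.0% and 9.31%), and in labelled-knockout males 7 of 32 rose and 7 fell (21.6% and 20.0%). Psat1, an enzyme of serine synthesis, rose in all 6 HFCF comparisons against HF or LF, by log2 0.96 to 1.88. In labelled-knockout males it went from 0.915 ± 0.4996 to 2.48 ± 0.576 CPM (1.45, adjusted p = 9.44e-04). Stc2, a secreted glycoprotein, rose in control females (2.04), labelled-knockout females (2.45), control males (1.38) and labelled-knockout males (0.60, adjusted p = 0.0489). Its group means were low, from 0.373 ± 0.192 CPM in labelled-knockout HF females to 2.36 ± 0.859 CPM in control HFCF females. Cth fell in both male comparisons (-0.42 in controls, -0.81 in labelled knockouts).

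Markers of other liver cell types rose with the HFCF diet. On HFCF against HF, 13.0% of all genes rose and 9.31% fell in control males, and 21.6% and 20.0% in labelled-knockout males. In control females 16.9% rose and 13.8% fell, and in labelled-knockout females 8.44% and 6.01%. Against HF, all 5 cholangiocyte markers rose in each of the 4 comparisons, and macrophage markers rose in 5 of 6 in each comparison but that of labelled-knockout females, where 2 of 6 did. Their summed level was 290 to 513 CPM in control HF males and 493 to 984 CPM in control HFCF males for macrophages, and 325 to 553 against 926 to 1140 CPM in control females. Stellate cell markers rose in 4 and 5 of 6 in control and labelled-knockout males, and in 2 and 5 of 6 in females. Hepatocyte markers fell in 3, 5, 4 and 0 of 6 (control males, labelled-knockout males, control females and labelled-knockout females). Of 10 immediate early genes on HFCF against HF, 2 rose in control females (Btg2 1.15, Egr1 0.96), 1 in labelled-knockout females (Jun 1.29) and 0 in control males. The counts in females are near the shares of all genes that rose. In labelled-knockout males 5 rose (Fosb 1.54, Jun 0.90, Egr1 0.86, Fos 0.83, Btg2 0.51) and Ier2 fell (-0.23). Against LF, Jun (1.47) and Fosb (0.92) rose in control females, and Jun (0.97) in labelled-knockout females, where 18.4% and 8.26% of all genes rose. The 3 haemoglobin genes of the blood list fell in labelled-knockout males on HFCF against HF (-1.35 to -1.54). The part of these movements in the Atf3, Herpud1, Xbp1 and Hspa5 results was not tested.

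Members also varied within groups, and this was described over 48 livers as deviations of log2 CPM from each liver's group mean. Of 45 pairs of members, 6 had a Pearson permutation p under 0.05 after adjustment over the 45. Xbp1 and Hspa5 varied together (r = 0.54, p = 1.60e-04, adjusted 0.00180), with Spearman's rho of 0.54 (adjusted p = 0.00484). Without the 2 livers farthest from the median for Xbp1, r was 0.52. Livers were left out by the first gene of a pair only. Within males r was 0.52 and within females 0.56 (n = 24 each). Hspa5 and Dnajb9 (r = 0.50, adjusted p = 0.0253) and Xbp1 and Dnajb9 (r = 0.49, adjusted p = 0.0257) completed the chaperone side, although rho for Hspa5 and Dnajb9, 0.44, had an adjusted p of 0.0574.

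On the ATF4 side, Atf4 and Ddit3 (r = 0.63, adjusted permutation p = 0.00165) and Atf3 and Ddit3 (r = 0.62, adjusted p = 0.00165) varied together. Without the 2 livers farthest for Atf4 or for Atf3, r was 0.50 and 0.59, with no liver left out by its Ddit3 value. The only passing pair across the arms was Xbp1 and Chac1 (r = 0.60, adjusted p = 0.00165). Its r was 0.52 without the 2 livers farthest for Xbp1, 0.42 in males and 0.80 in females. The 6 pairs within the chaperone arm had a median r of 0.42, the 15 within the ATF4 arm 0.12, and the 24 between arms 0.08. All points share the library's depth and its mix of cells.

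**Figure D4:**
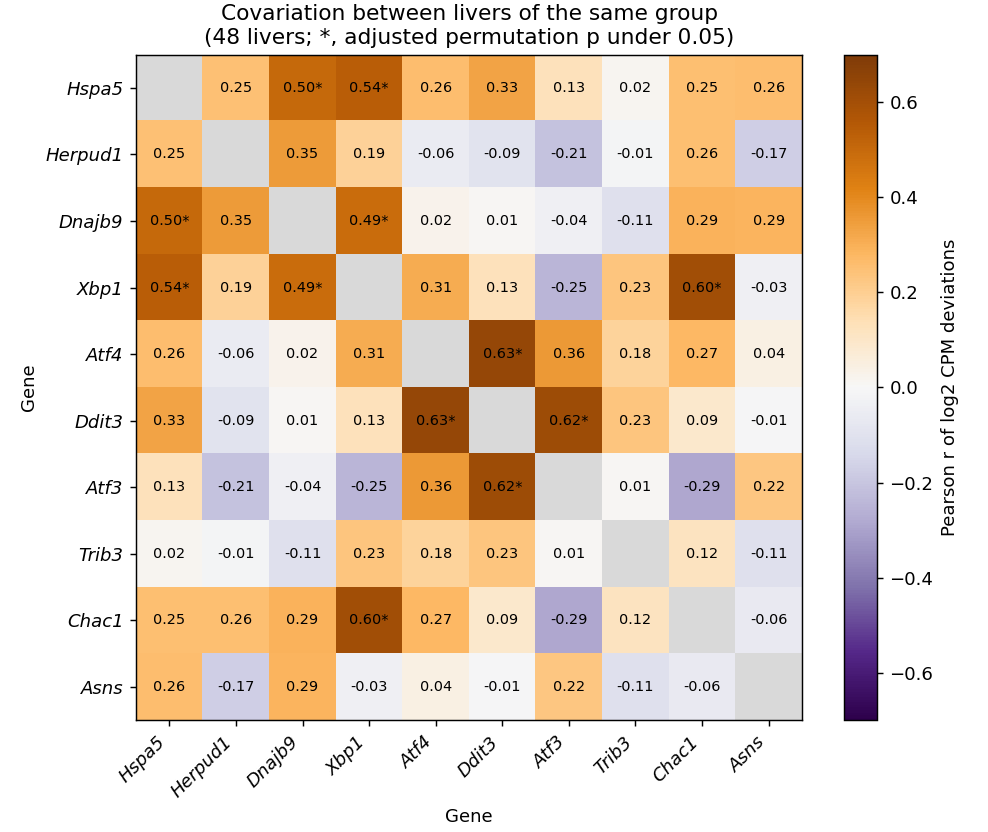
Pearson r between the 10 genes over 48 livers, from deviations of log2 CPM from the group mean, with a star where the permutation p adjusted over 45 pairs is under 0.05. The 6 starred pairs join Xbp1, Hspa5 and Dnajb9, join Ddit3 to Atf4 and to Atf3, and join Xbp1 to Chac1.

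The genes most like each member in these deviations were sought among 12365 genes, and are given as a description with no test. Hspa5 was followed most closely by other ER chaperone genes, Hyou1 (r = 0.96), Manf (0.93) and Creld2 (0.91). The Creld2 promoter, like that of Hspa5, holds a match to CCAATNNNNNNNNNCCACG, on the opposite strand. No promoter sequence was found under the names Hyou1 and Manf, so those genes were not searched. Herpud1 was nearest Edem1 (0.66), an ER-degradation gene. Atf3 was nearest Cd300lb (0.82), a myeloid receptor, Relb (0.81), of the NF-κB family, and Apobec1 (0.80), an RNA-editing enzyme. Chac1 was nearest Foxq1 (0.83), Arid5b (0.81) and Phlda1 (0.79), and Ddit3 was nearest the chemokine Cxcl10 (0.66). Xbp1 (Mrps10, 0.72), Atf4 (Cdk9, 0.72), Dnajb9 (Tmem39a, 0.71), Asns (Dnajc10, 0.66) and Trib3 (Pcnx4, 0.60) had less close neighbours, with the nearest gene and its r in brackets.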

How the data were processed

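Whole-liver RNA of 48 mice was sequenced after Trizol extraction as libraries without strand, with inserts of 250 to 300 bp, per the labels. Per the submitters' processing notes, the tools named are STAR 2.6.1, HTSeq 0.6.1 and DESeq2, and the build is GRCm38 (mm10). The authors deposited raw read counts per gene in 11 tables of pairwise comparisons, and these counts were joined by gene identifier. Of 1341082 repeated values, 0 differed, and no 2 libraries were identical. No other deposited value was used.

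Depth was 15338239 to 22072884 reads on genes per library. CPM was computed with TMM factors. The 13 pairwise comparisons were each fitted on 2 groups, and 7 interactions on 4 groups, with edgeR 4.0.16 in R 4.3.3 (filterByExpr, quasi-likelihood F test, Benjamini-Hochberg adjustment over all genes tested, threshold 0.05). Correlations used log2 CPM with a prior count of 2 and 100000 permutations within groups (smallest p 1e-05).

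The members and gene lists (140 of 143 list genes found) were chosen with earlier results of these data known. Besides members, up to 3 called genes per list, direction and comparison were named by absolute log2 change, and 3 genes most like each member; genes named outside this rule (Pparg, Cidec, and list genes followed across comparisons) were chosen after their values were seen. Alternatives were DESeq2 1.42.0 size factors, the DESeq2 Wald test, no filter, an absolute log2 change of at least 1, 10 or more counts in each library, all 10 groups in 1 fit, the replicate block, and the omission of each library. Livers are taken as separate animals from the sample titles.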

Additional observations from a re-analysis of the deposited data

Results flagged for a closer look

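In 8 of the 100 combinations of member and group, 1 liver stood apart from the others of its group by Dixon's 95% criterion. Chance flags about 1 in 20 groups. Atf3 was 4.16 CPM in control HFCF male 1 against a group median of 12.9 CPM. Ddit3 was 12.1 CPM in labelled-knockout HF male 4 (median 7.34). Hspa5 was 743 CPM in control HFCF female 5 (median 379), and Trib3 was 16.8 CPM in labelled-knockout HFCF female 1 (median 9.39). Dnajb9 was 39.5 CPM in control LF female 3 (median 44.1). Asns, which rests on few reads, was 1.04 CPM in control HF female 1 (median 0.0925), 2.35 CPM in control HFCF female 5 (median 0.650) and 1.03 CPM in labelled-knockout HFCF female 4 (median 0.322). Control HFCF female 5 thus appears for both Hspa5 and Asns.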

How the results depend on the processing

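None of the 27 called fold changes reversed under the alternatives run. The counts that follow are of members called, without the share of all genes called in the same fit unless stated. They do not show whether members gain or lose calls more than other genes. Requiring an absolute log2 change of at least 1 left 1 in each of the labelled-knockout comparison of HF males (2 otherwise), that of HFCF males (2), HFCF against HF in control females (2), labelled-knockout females (5), control males (3) and labelled-knockout males (7), and HFCF against LF in control females (3). With all 10 groups in 1 fit the count was 1 for the labelled knockout in HFCF males, 3 for HFCF against HF in labelled-knockout females, 5 for HFCF against LF in labelled-knockout females (3 otherwise), and 1 for HFCF against HF in control males. The DESeq2 Wald test called 1 member (Chac1) for the labelled knockout in HFCF females, 1 (Atf3) for the labelled knockout by diet in males, and 1 (Hspa5) for the diet effect by sex in labelled knockouts, each 0 by edgeR. It also called Asns for the labelled knockout in HFCF males (-1.22, adjusted p = 0.0219) and Atf3 for HFCF against HF in control males (0.63, adjusted p = 0.0338), which edgeR did not. The Wald test called Atf4 too, for HFCF against HF in control females (-0.31, adjusted p = 0.0417). There edgeR called Atf4 only with all 10 groups in 1 fit (adjusted p = 0.0256) or without some livers. Hspa5 was also the 1 called for the diet effect by sex in labelled knockouts with no filter and with all 10 groups in 1 fit. With the replicate number as a block (replicate block), the counts were 0 for HFCF against HF in control females, 2 in labelled-knockout females, and 1 for HFCF against LF in labelled-knockout females. Over all genes the block called 0 in that control comparison in place of 4526. The replicate numbers are not shown to pair the livers, since correlations of same-numbered deviations ran from -0.229 to 0.340 and in no comparison were all above 0.1. The animal numbers in the labels were not examined for pairing or cohort.

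Leaving out each library in turn gave 0 to 4 for the labelled knockout in HFCF males, 1 to 5 for HFCF against HF in control females, 1 to 5 in labelled-knockout females, 1 to 4 in control males and 4 to 7 in labelled-knockout males, 1 to 5 for HFCF against LF in control females and 0 to 4 in labelled-knockout females, 0 to 1 for the labelled knockout by diet in males and 0 to 1 for the diet effect by sex in labelled knockouts. For the labelled knockout in HFCF males the count was 0 without control 3 or labelled knockout 1. For HFCF against LF in labelled-knockout females it was 0 without LF liver 3 or HFCF liver 2. The share of all genes called in each of these fits is not given beside the counts. Of the 27 calls, 10 held in every fit without a library and 17 did not. Limits are the 4 livers per female group and the low counts of Asns, which was at 0 in 3 libraries.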
